A study of Mus musculus with 46 samples.

Results

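Solute carriers are membrane proteins that move ions, nutrients and metabolites across the plasma membrane and the membranes of organelles. They were followed here through the first 4 h after partial hepatectomy in mouse liver. Members were the probe sets of the array whose single gene symbol in the platform annotation begins with Slc and a digit or with Slco, and 1 bile acid transporter symbol was left out and not analysed here. This gave 185 probe sets for 153 genes, out of 12422 probe sets tested, and 125 of the genes had 1 probe set while 28 had several. Of the 185 probe sets, 3 belong to adaptor proteins that carry a solute carrier symbol without being transporters (Slc4a1ap, Slc9a3r1 and Slc9a3r2).

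Livers came from male mice of the CB6F1 hybrid strain, young (5 to 6 months, from Jackson Laboratories) or old (25 to 27 months, from the National Institute on Aging), so age and supplier cannot be told apart. In partial hepatectomy (PH), 70% of the liver mass was removed under avertin and isoflurane. Liver was taken 0.5, 1, 2 or 4 h later, in 3 arrays for each age and time. Sham-operated livers were taken at the same times, in 2 arrays for each age and time, and untreated livers at 0 h gave 3 arrays for each age. The 46 arrays thus formed 18 groups. No label says that replicates came from separate animals, so a p-value here reflects differences among arrays that may be technical in origin.

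A resected liver must meet the whole body's metabolic demand with the tissue that is left while its cells prepare to divide. Amino acid, phosphate and sugar carriers of the plasma membrane bring in substrates, and mitochondrial carriers of the Slc25 family exchange nucleotides, phosphate, acids and cofactors between the cytosol and the matrix. Organic ion carriers take up bile acids, drugs and hormones, and metal carriers set the zinc, iron, copper and magnesium content of the cell. Slc25a25 encodes a calcium-sensitive carrier that exchanges ATP-Mg for phosphate across the inner mitochondrial membrane.

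Values are log2 expression as deposited, so a difference of 1 is a 2-fold change, and levels are not compared between genes. Differences were tested with limma on group means over all 46 arrays, with Benjamini-Hochberg adjustment over 12422 probe sets and a threshold of 0.05. Median levels of the arrays lay between 6.22 and 6.33. The sham arrays stood apart from the rest: principal component 1 took 26.8% of the variance, and along it they scored 7.75 to 30.26 and the other 30 arrays -34.13 to 6.27. Whether the sham arrays were processed separately cannot be told apart from the operation, so differences from sham and from 0 h are given side by side for the members described most closely. Old PH 1 h replicate 3 was also far from its group. It had the highest neutrophil and macrophage marker means of all arrays (7.94 and 8.34) and the lowest erythroid mean among the arrays (7.46). The mean of 11 hepatocyte markers ranged only from 11.40 to 11.78. In whole liver, a change in the number of cells of a type and a change in RNA per cell cannot be told apart.

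Group means spanned less than 0.5 in 93 of the 185 solute carrier probe sets (50.3% against 48.5% of all tested) and more than 1 in 26 (14.1% against 10.8%). Mean signals over the arrays ran from 2.68 to 11.59 with a median of 6.66, against a median of 6.29 over the array, and 39 members were among the dimmest 25% of the table. The mean signal of Slc25a25 was 11.12.

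At 0.5 h Slc25a25 had the largest rise among solute carriers on the mean of both ages, and the 250 bases before 2 of its annotated starts are shown because start 3, and not start 1, has a cAMP response element before it. They are printed with those of Slc25a47 and Slc20a1, which passed as higher than 0 h only from 1 h on, from RefSeq promoter entries on GRCm38.p6. Capitals mark TGACGTCA (cAMP response element), CACGTG (E-box) and CCAAT (or ATTGG on the other strand).

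Slc25a25 start 3, chr2:32424067-32424316, minus strand: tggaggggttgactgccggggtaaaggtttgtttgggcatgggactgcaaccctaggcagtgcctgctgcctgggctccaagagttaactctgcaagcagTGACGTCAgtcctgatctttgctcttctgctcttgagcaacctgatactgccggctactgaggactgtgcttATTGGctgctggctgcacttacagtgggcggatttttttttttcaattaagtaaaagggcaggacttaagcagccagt
Slc25a25 start 1, chr2:32451471-32451720, minus strand: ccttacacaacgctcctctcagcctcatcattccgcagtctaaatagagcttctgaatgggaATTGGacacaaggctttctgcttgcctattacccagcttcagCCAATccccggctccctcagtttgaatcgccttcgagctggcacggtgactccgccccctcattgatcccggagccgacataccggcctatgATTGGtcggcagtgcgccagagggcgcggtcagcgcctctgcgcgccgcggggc
Slc25a47, chr12:108850879-108851128, plus strand: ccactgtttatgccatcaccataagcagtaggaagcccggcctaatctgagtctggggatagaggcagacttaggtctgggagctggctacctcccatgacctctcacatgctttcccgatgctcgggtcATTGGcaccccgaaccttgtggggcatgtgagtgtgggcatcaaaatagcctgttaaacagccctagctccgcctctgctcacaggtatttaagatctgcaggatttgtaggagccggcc
Slc20a1 start 1, chr2:129198523-129198772, plus strand: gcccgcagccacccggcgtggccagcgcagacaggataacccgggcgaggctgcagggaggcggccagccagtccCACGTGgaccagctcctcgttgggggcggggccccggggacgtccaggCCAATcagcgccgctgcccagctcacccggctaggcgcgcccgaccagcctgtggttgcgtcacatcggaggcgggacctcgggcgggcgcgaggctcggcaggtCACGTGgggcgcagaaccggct

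In start 3 of Slc25a25 the TGACGTCA began 150 bases before the start. This motif was in 1.15% of the 174 member windows, those of Slc25a25 and Slc25a36, and in 1.79% of all 32851 windows, each reaching from 250 bases before to 50 after a start. CACGTG was in 12.6% of member windows and 7.15% of all, with 2 copies before start 1 of Slc20a1. CCAAT was in 31% and 37.4%, and 3 copies lay before start 1 of Slc25a25. The other motifs searched were TGACTCA (AP-1; 2.87% and 5.20%), TGCGCNC (metal response element; 21.8% and 15.4%) and TGATGNAA (amino acid response element; 4.02% and 3.97%), all on both strands, and they are not in capitals. Of the 153 genes, 124 had an entry. These shares describe letters and not binding.

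Slc25a25 was higher after either operation than in untreated liver. At 0 h its level was 10.18, 10.10 and 10.74 in young and 10.29, 9.22 and 9.40 in old livers. At 0.5 h after PH it was 11.52, 11.07 and 11.44 in young and 10.75, 9.83 and 11.51 in old livers. Young PH arrays all lay above all 0 h arrays, while 1 old PH array (9.83) lay inside the 0 h range. Averaged over the ages, the rise at 0.5 h was 1.03 ± 0.18 (SE, 6 arrays against 6, 2.05-fold, limma adjusted p = 0.00918). Only 10 probe sets of the array rose at that time. The call was lost without old 0 h replicate 2 or 3 (highest limma adjusted p = 0.058), and in a fit of the compared groups alone. Within 1 age it did not pass, at 1.00 in young (limma adjusted p = 0.166) and 1.06 in old livers (0.149). In young livers alone the difference of Slc38a2 was as large (1.03, limma adjusted p = 0.263).

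The sham arrays were raised above 0 h as well. At 0.5 h they read 11.11 and 11.25 in young and 10.83 and 10.72 in old livers, within the range of the PH arrays. The difference of PH from sham at 0.5 h was 0.04, with a 95% interval from -0.37 to 0.46 (limma adjusted p = 0.897). Sham arrays exceeded 0 h by 0.99 at 0.5 h (limma adjusted p = 0.000795), and by 1.23, 0.73 and 0.98 at 1, 2 and 4 h. The PH and sham differences share the 0 h arrays.

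PH and sham parted later. At 1 h after PH, Slc25a25 was 11.96, 11.81 and 11.92 in young and 11.26, 11.85 and 11.52 in old livers. At 2 h it was 12.11, 12.40 and 11.80 in young and 11.27, 11.72 and 11.49 in old livers, and the 4 sham arrays of that time read 10.63 to 10.90. At 2 h no PH array overlapped a sham array. At 4 h PH arrays read 11.10 to 11.77 and sham arrays 10.81 to 11.12, with a small overlap. Against 0 h the rises were 1.73, 1.81 and 1.46 at 1, 2 and 4 h (3.32-, 3.5- and 2.74-fold; limma adjusted p = 7.12e-08, 9.06e-09 and 2.89e-07).

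Against sham, the PH difference at 2 h was 1.08 ± 0.20 (SE; limma adjusted p = 0.000188), and it held without each array in turn. At 1 h it was 0.50 (limma adjusted p = 0.0433) but passed in only 1 of 10 fits that left out an array. It also missed the threshold with the replicate block (a difference of 0.46) and with the spike-in signal as a covariate (a difference of 0.04). At 4 h it was 0.47, with a 95% interval from 0.06 to 0.89, and did not pass (limma adjusted p = 0.0862). Between successive PH times, none of the changes passed: 0.70 from 0.5 to 1 h (limma adjusted p = 0.0546), 0.08 from 1 to 2 h (0.885) and -0.35 from 2 to 4 h (0.203).

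**Figure D1:**
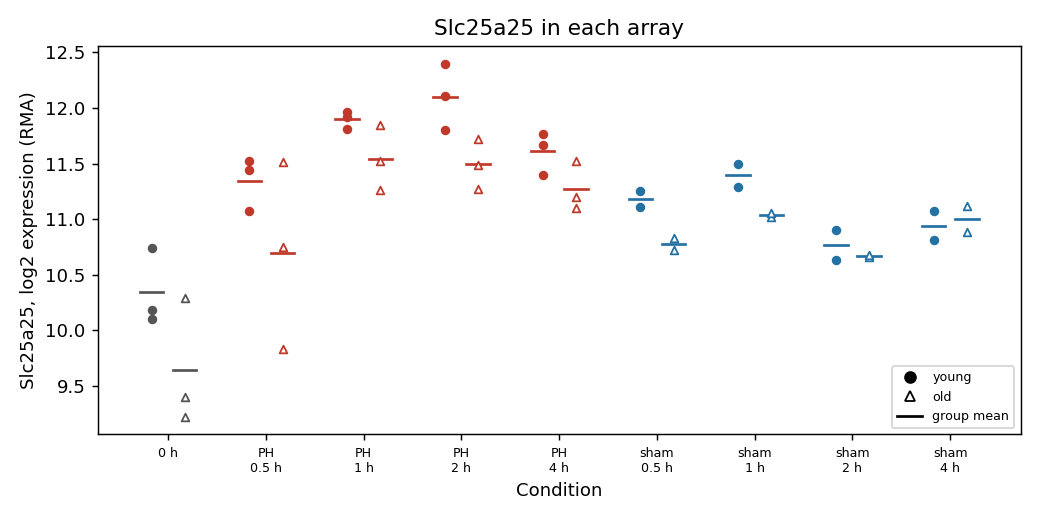
Slc25a25 log2 expression (vertical axis) in each of the 46 arrays by condition (horizontal axis); filled circles are young livers, open triangles old livers, and short lines group means. The 0 h arrays lie between 9.22 and 10.74, the sham arrays between 10.63 and 11.50, and the PH 2 h arrays between 11.27 and 12.40.

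Ordered by group mean, Slc25a25 ran from old 0 h (9.64 ± 0.57, SD, n = 3) and young 0 h (10.34 ± 0.35) to young PH 1 h (11.90 ± 0.08) and young PH 2 h (12.10 ± 0.30). The 8 sham groups lay between 10.67 and 11.39. Of 17 neighbouring pairs in that order, 14 differed by less than the larger of their 2 SDs. Old livers were lower by 0.38 over the 9 conditions (limma adjusted p = 0.00905), and this held without each of the 46 arrays. At 0 h alone the age difference was -0.70 and did not pass (limma adjusted p = 0.498).

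Across the 18 group means, the genes most like Slc25a25 by Pearson correlation were Nr4a1 (0.891), Atf3 (0.862), Rcan1 (0.836), Btg2 (0.835) and Ifrd1 (0.834). Among solute carriers they were Slc25a47 (0.774), Slc38a2 (0.724), Slc7a2 (0.715), Slc2a1 (0.707) and Slc20a1 (0.687). These are descriptions over group means from the same arrays. Jun, an immediate early transcription factor, rose by 0.97 at 0.5 h and 1.51 at 1 h against 0 h (limma adjusted p = 0.00397 and 6.92e-08). Its PH difference from sham was 0.22 at 0.5 h (limma adjusted p = 0.357) and 0.71 at 1 h (0.00173). Fos, Atf3 and Egr1 differed from 0 h at 0.5 h by 2.67, 1.43 and 1.23, more than Jun, but did not pass (limma adjusted p = 0.151, 0.261 and 0.528). Their SEs were 0.65, 0.39 and 0.4, against 0.16 for Jun. Rcan1, Nr4a1 and Btg2 differed by 0.82, 0.78 and 0.67 without passing (limma adjusted p = 0.0797, 0.528 and 0.569). Against sham at 0.5 h none of these genes passed. Fos, Egr1 and Btg2 differed by -1.34, -1.11 and -0.23 (limma adjusted p = 0.165, 0.0604 and 0.553), and Rcan1, Atf3 and Nr4a1 by 0.49, 0.25 and 0.06 (0.0685, 0.699 and 0.908). Rcan1, an inhibitor of calcineurin, was 2.07 higher in PH than in sham livers at 2 h (limma adjusted p = 4.54e-08), and Nr4a1, an orphan nuclear receptor, 1.71 higher (6.75e-05). Against 0 h at 2 h they rose by 3.21 and 1.97 (limma adjusted p = 1.61e-14 and 2.07e-06).

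Over the solute carriers, the number that differed from 0 h grew with time after PH. At 0.5 h 2 probe sets rose and 0 fell (1.08% of members against 0.0886% of all tested probe sets, of which 0.0805% rose and 0.00805% fell). At 1 h 9 rose and 3 fell (6.49% against 3.72%, of which 1.96% rose and 1.75% fell). At 2 h 17 rose and 15 fell (17.3% against 12.8%, of which 5.74% and 7.08%). At 4 h 28 rose and 24 fell (28.1% against 23.5%, of which 11.5% and 12%). The member medians were 0.00, -0.01, -0.01 and 0.00 at the 4 times, against 0.01, -0.02, -0.01 and 0.02 over the array. In all, 62 probe sets for 57 genes passed at 1 time or more (33.5% against 29.7% of all tested). Of these, 30 passed upward (16.2% against 14.1%) and 32 downward (17.3% against 15.6%), and 0 passed in both directions. Without old PH 1 h replicate 3 the count at 1 h was 5 in place of 12, and the calls of Slc27a2, Slc3a2 and Slc10a6 at 1 h passed in 4, 4 and 3 of 12 fits that left out an array. With the spike-in signal as a covariate it was 4 at 1 h and 11 at 2 h. The mean spike-in signal of the 9 hybridisation control probe sets was 7.76 to 9.25 in the PH 1 and 2 h arrays and 8.79 to 10.61 at 0 h. It was 7.68 to 10.9 in the PH 0.5 and 4 h arrays and 9.05 to 9.55 in the 16 sham arrays.

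**Figure D2:**
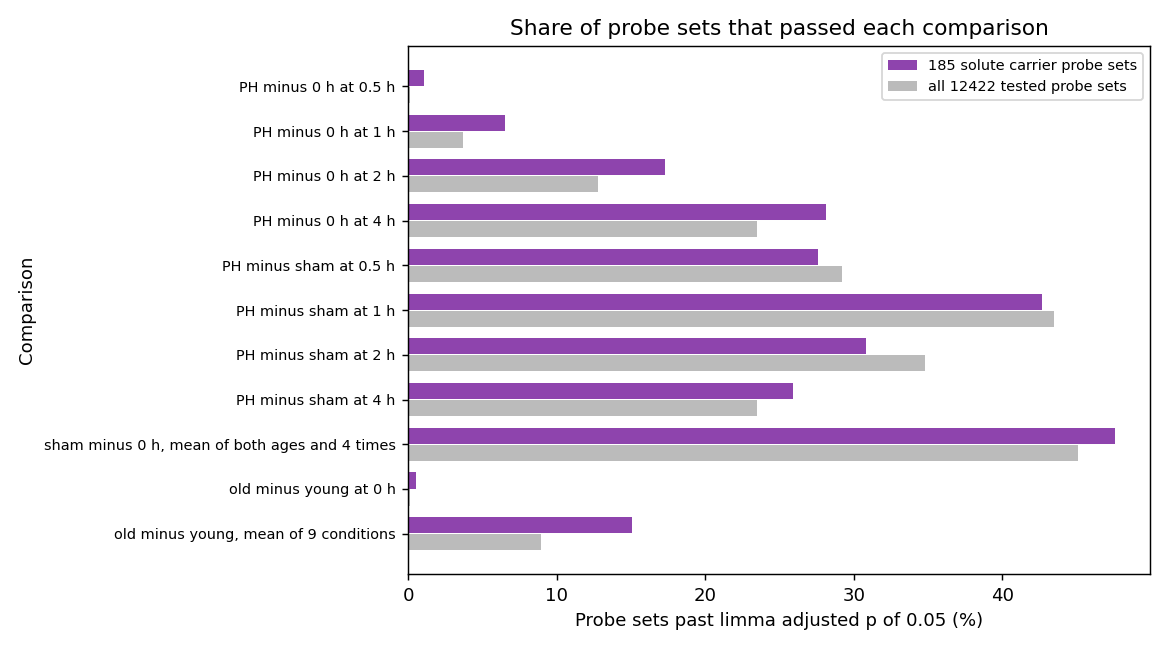
Share of probe sets past the threshold (horizontal axis, percent, bars from 0) in each of 11 comparisons (vertical axis); purple bars are the 185 solute carrier probe sets and grey bars all 12422 tested probe sets. Against 0 h both shares grow with time after PH, to 28.1% and 23.5% at 4 h.

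Among the mitochondrial carriers, 24 probe sets for 20 genes, 5 rose and 3 fell at 4 h (33.3% against 23.5% of all tested, of which 11.5% rose and 12% fell). The same array shares apply to the counts of the other groups at 4 h. Slc25a47, a carrier found mainly in liver, had 0 h arrays from 10.16 to 10.50 (median 10.22). Its PH arrays ran from 10.86 to 11.82 at 1 h (median 11.11), from 10.91 to 11.67 at 2 h (11.56) and from 11.21 to 11.94 at 4 h (11.59). From 1 h on, no PH array overlapped the 0 h arrays, and sham arrays (10.77 to 11.38) also lay above them. Against 0 h it rose by 0.92, 1.16 and 1.27 at 1, 2 and 4 h (limma adjusted p = 1.57e-05, 5.28e-08 and 4.81e-09). Against sham its difference was 0.19 at 1 h (limma adjusted p = 0.298), 0.44 at 2 h (0.0172) and 0.57 at 4 h (0.00437). The call against sham at 2 h was lost without old PH 2 h replicate 2 or old sham 2 h replicate 2, and with the spike-in covariate.

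Slc25a51, which carries NAD into mitochondria, was measured by 2 probe sets that rose together against 0 h. The first ran from 7.69 to 8.29 at 0 h and from 8.85 to 9.14 at PH 4 h, and the second, with the suffix _f, rose at all 4 times. At 4 h they rose by 1.15 and 1.18 (limma adjusted p = 4.67e-10 and 2.82e-14). Against sham the probe sets differed: the second was higher after PH at all 4 times (0.35 to 0.52), while the first passed at none (-0.12 to 0.25). At 0.5 h the second was the only member higher both than 0 h (limma adjusted p = 0.00397) and than sham. Within 1 age its differences from 0 h then were 0.43 in young and 0.41 in old livers, without passing (limma adjusted p = 0.0568 and 0.122). The suffix _f marks a probe set that can cross-hybridise within a gene family. In the first, sham arrays also reached 8.78 to 8.92 at 4 h.

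Slc25a15, the ornithine carrier of the urea cycle, rose by 0.50 at 2 h and 0.43 at 4 h (limma adjusted p = 0.00592 and 0.00987) and was 0.40, 0.50 and 0.38 above sham at 0.5, 1 and 2 h (0.029, 0.00454 and 0.033). The first of these passed in 5 of 10 fits that left out an array. At 2 h the difference from sham passed in 3 of 10 fits that left out an array, and the calls against 0 h and against sham at 2 h were lost with the spike-in covariate. Slc25a11, the oxoglutarate and malate carrier, fell by 0.23, 0.35 and 0.43 at 1, 2 and 4 h (limma adjusted p = 0.0462, 0.00051 and 1.2e-05). It was the only member to fall at 3 or more times. It fell by 0.30 in sham arrays too (limma adjusted p = 6.28e-05), and its PH and sham arrays differed by at most 0.13. The PH call at 1 h passed in only 2 of 12 fits that left out an array.

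Amino acid carriers formed the largest group, 43 probe sets for 33 genes, of which 6 rose and 3 fell at 4 h (20.9% against 23.5%). Slc38a2, a sodium-coupled carrier of neutral amino acids, had 0 h arrays from 6.61 to 8.0 (median 7.20). Its PH arrays ran from 6.86 to 8.45 at 0.5 h, from 8.20 to 9.23 at 1 h, from 8.41 to 9.01 at 2 h and from 8.26 to 9.02 at 4 h. At 0.5 h the difference was 0.50 and did not pass (limma adjusted p = 0.657), at 1.03 in young and -0.02 in old livers. From 1 h on, PH and 0 h arrays did not overlap. The rises at 1, 2 and 4 h were 1.41, 1.51 and 1.55 (2.66-, 2.84- and 2.92-fold; limma adjusted p = 2.48e-05, 2.07e-06 and 6.21e-07). Against sham it was higher at each of the 4 times, by 0.64, 1.02, 0.61 and 0.73 (limma adjusted p = 0.0322, 0.000536, 0.0342 and 0.0174). Without 1 array in turn, these passed in 5, 10, 3 and 7 of 10 fits. Of its 4 probe sets this was the only one to rise at 4 h, and the other 3, dimmer and with the suffix _r, differed by 0.09 to 0.23. Against sham none of these 3 passed as higher at any time, and 1 of them passed as lower at 1 time.

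Slc7a2, a carrier of arginine, lysine and ornithine, had 0 h arrays from 8.0 to 8.85 and PH 4 h arrays from 8.91 to 9.44. It rose by 0.41, 0.80 and 0.69 at 1, 2 and 4 h (limma adjusted p = 0.0463, 1.57e-05 and 5.39e-05). The rise at 1 h passed in 2 of 12 fits without an array, and missed the threshold with the replicate block (a difference of 0.41). Sham arrays stayed at 7.95 to 8.75, and PH exceeded sham by 0.56 at 2 h and 0.53 at 4 h (limma adjusted p = 0.00207 and 0.00431). At 1 h PH also passed as higher than sham. Slc3a2, the heavy chain shared by several amino acid exchangers, rose by 0.28, 0.35 and 0.31 at 1, 2 and 4 h, and its differences from sham (-0.16 to 0.10) did not pass. Slc1a5, a glutamine carrier, rose by 0.29 at 4 h (limma adjusted p = 0.0355), a call that passed in 6 of 12 fits without an array, and its difference from sham then was -0.02 (0.933). Slc6a6, the taurine carrier, fell by 0.56 at 4 h (limma adjusted p = 0.000485), and its other probe set by 0.60. Against sham the 2 probe sets differed: the first was 0.38 and 0.57 higher at 0.5 and 1 h (limma adjusted p = 0.0277 and 0.000814) and the other lower, at -0.33, at 4 h (0.0064, lost without old sham 4 h replicate 2). The first passed at 0.5 h in 5 of 10 fits without an array.

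Against 0 h on the mean of both ages, the largest PH rise of any member was in Slc20a1 at 2 h. This gene, a sodium-dependent phosphate carrier and 1 of 25 probe sets of the inorganic ion group, read 6.25 to 6.96 at 0 h. It read 6.86 to 7.42 at PH 0.5 h, 6.74 to 8.66 at 1 h, 8.09 to 8.90 at 2 h and 7.23 to 9.16 at 4 h. The 16 sham arrays lay between 6.06 and 7.41, below every PH 2 h array. Against 0 h it rose by 1.04, 2.00 and 1.5 at 1, 2 and 4 h (2.06-, 4.01- and 2.82-fold; limma adjusted p = 0.00864, 1.65e-07 and 1.25e-05). Against sham it was higher by 1.59 at 2 h and 1.01 at 4 h (limma adjusted p = 3.97e-05 and 0.0055). The call at 1 h was lost without old PH 1 h replicate 3, which had the 8.66 (limma adjusted p = 0.0561). In the same group Slc12a7, a potassium-chloride cotransporter, fell by 0.52 at 4 h (limma adjusted p = 4.59e-05). It was 0.31 and 0.47 above sham at 0.5 and 1 h (limma adjusted p = 0.0186 and 0.000378), and the first of these passed in 7 of 10 fits without an array. In all 3 of the group rose and 4 fell at 4 h (28% against 23.5%), and the adaptor gene Slc4a1ap was among those that fell.

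**Figure D3:**
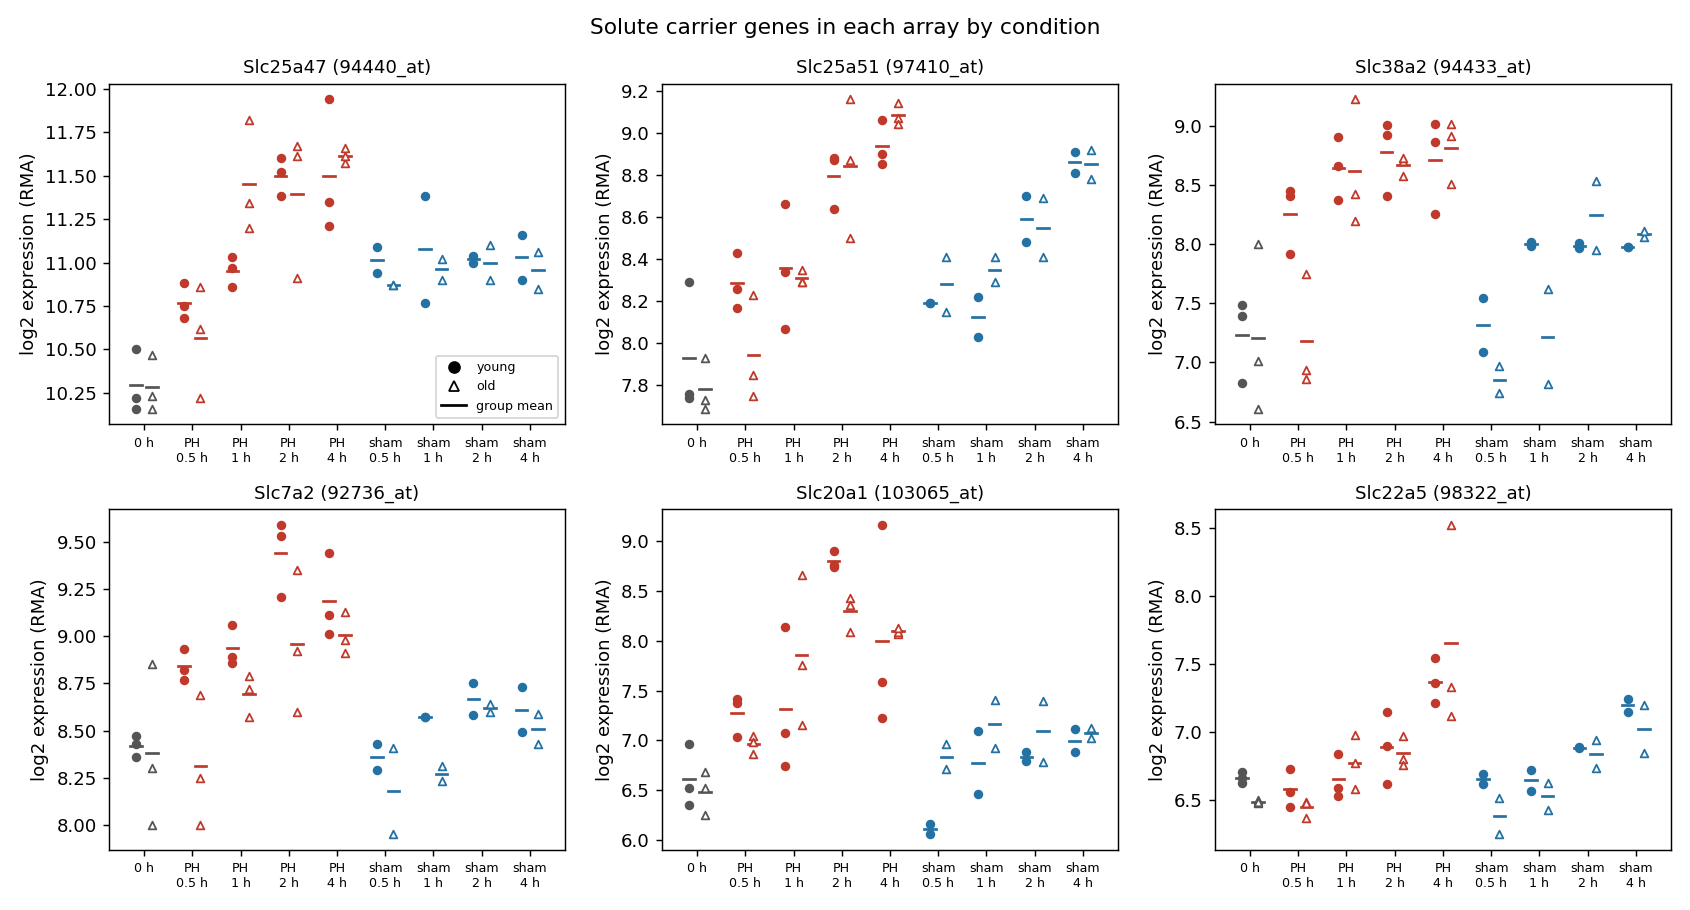
Log2 expression (vertical axes) of 6 solute carrier genes in each array by condition (horizontal axes); filled circles are young livers, open triangles old livers, and short lines group means. Slc20a1 in the sham arrays stays between 6.06 and 7.41 while its PH 2 h arrays lie between 8.09 and 8.90, and Slc25a51 climbs in sham arrays as well, to between 8.78 and 8.92 at 4 h.

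Of the 20 probe sets for carriers of organic ions and bile acids, 5 rose and 2 fell at 4 h (35% against 23.5%). Slc22a5, the carnitine carrier, read 6.48 to 6.71 at 0 h and 7.12 to 8.52 at PH 4 h, where 1 old array (8.52) lay well above the rest. It rose by 0.94 at 4 h (1.92-fold, limma adjusted p = 3.1e-06) and exceeded sham by 0.41 (0.0469). That difference from sham passed in 4 of 10 fits that left out an array and missed the threshold in a fit of the compared groups alone. Slc10a6, a carrier of sulphated steroids, rose by 0.33, 0.30 and 0.70 at 1, 2 and 4 h (limma adjusted p = 0.0442, 0.0353 and 1.34e-06). The call at 2 h passed in 4 of 12 fits without an array. Its difference from sham at 4 h was 0.10 (limma adjusted p = 0.52). Slc22a30, an organic anion carrier relative, read 9.08 to 9.72 at 0 h and 8.0 to 8.81 at PH 4 h, a fall of 0.91 (limma adjusted p = 0.000949). It was 0.64 lower in sham arrays too (limma adjusted p = 0.00252).

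Of the metal carriers (23 probe sets for 16 genes), 6 were higher and 4 lower at 4 h (43.5% against 23.5%, of which 11.5% and 12%). Slc41a1, a magnesium carrier, read 4.95 to 5.28 at 0 h and 5.09 to 6.37 at PH 4 h, a rise of 0.75 (limma adjusted p = 6.47e-05). Sham arrays at 4 h read 5.51 to 6.27, and its PH difference from sham was -0.46 at 2 h (limma adjusted p = 0.0168) and -0.05 at 4 h (0.847). The call at 2 h was lost without old PH 2 h replicate 2, young sham 2 h replicate 2 or old sham 2 h replicate 1. Slc39a8, a zinc and manganese importer, read 6.27 to 6.65 at 0 h and 5.57 to 6.06 at PH 4 h. It fell by 0.60 (limma adjusted p = 5.21e-05), and the difference from sham was -0.10 (0.559). Slc31a1, the copper importer, fell at 4 h in both of its probe sets, by 0.34 and 0.22, and the smaller fall was lost without young 0 h replicate 3, young PH 4 h replicate 2 or old PH 4 h replicate 3. Against sham at 4 h they differed by -0.22 and 0.01 without passing (limma adjusted p = 0.0985 and 0.97), and at 0.5, 1 and 2 h the second was higher by 0.23, 0.25 and 0.26 (0.0259, 0.00999 and 0.0115). Those calls passed in 6, 8 and 8 of 10 fits without an array. Slc11a1, a metal carrier of phagocytes, rose by 0.38 at 4 h (limma adjusted p = 0.000503), and its difference from sham was 0.11 (0.397). The macrophage markers read 6.45 to 7.12 at 0 h and 6.41 to 7.33 at PH 4 h, and 0 of 9 passed. The neutrophil markers read 5.68 to 5.90 and 5.95 to 6.39, with 3 of 10 higher, and their part in the Slc11a1 result was not tested.

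Among sugar and nucleotide sugar carriers (25 probe sets) 1 rose and 3 fell at 4 h (16% against 23.5%). Slc2a1, the glucose carrier of most growing cells, read 6.03 to 6.21 at 0 h and 6.22 to 6.91 at PH 2 h, with no overlap. It rose by 0.56 at 2 h and 0.43 at 4 h (limma adjusted p = 0.000798 and 0.00457) and exceeded sham by 0.41 and 0.34 (0.0131 and 0.0446). At 4 h the difference from sham passed in 3 of 10 fits without an array. Slc2a2, the main glucose carrier of hepatocytes, differed by -0.20 at 4 h and did not pass (limma adjusted p = 0.556). Slc35a1, which brings CMP-sialic acid into the Golgi, read 6.42 to 6.54 at 0 h and 5.64 to 6.12 at PH 4 h. It fell by 0.58 (limma adjusted p = 1.42e-05) and its difference from sham was -0.11 (0.443).

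Of the fatty acid and monocarboxylate carriers (8 probe sets), Slc27a2, a fatty acid carrier and acyl-CoA synthetase, read 10.66 to 11.07 at 0 h and 10.16 to 10.59 at PH 2 h. It fell by 0.41 at 1 h and 0.48 at 2 h (limma adjusted p = 0.0379 and 0.00449), and at 4 h the difference was -0.19 (0.236). The sham arrays were lower too, by 0.43 (limma adjusted p = 0.000508). Slc27a5, a bile acyl-CoA synthetase, fell by 0.22 at 4 h (limma adjusted p = 0.0448) and differed from sham by -0.12 (0.369). The fall passed in 3 of 12 fits without an array. With the spike-in covariate Slc27a2 did not pass at 2 h.

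In the nucleoside, vitamin and lipid group (16 probe sets) 2 rose and 3 fell at 4 h (31.2% against 23.5%). Slc23a2, a vitamin C carrier, rose by 0.50 at 4 h (limma adjusted p = 0.000565) and was 0.73 above sham (3.96e-05). Slc33a1, an acetyl-CoA carrier of the endoplasmic reticulum, was measured only by a dim probe set with the suffix _r. Its 0 h means were 3.96 in young and 4.12 in old livers. It fell by 0.53 (limma adjusted p = 0.000759). It was 0.56 and 0.75 above sham at 0.5 and 1 h (limma adjusted p = 0.00148 and 3.04e-05) and differed by -0.08 at 4 h (0.679). The 2 probe sets of Slc29a1, a nucleoside carrier, went opposite ways at 4 h: the brighter fell by 0.45 (limma adjusted p = 0.00118) and the dimmer, with the suffix _r, rose by 0.52 (0.00123). No direction is therefore given for that gene.

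**Figure D4:**
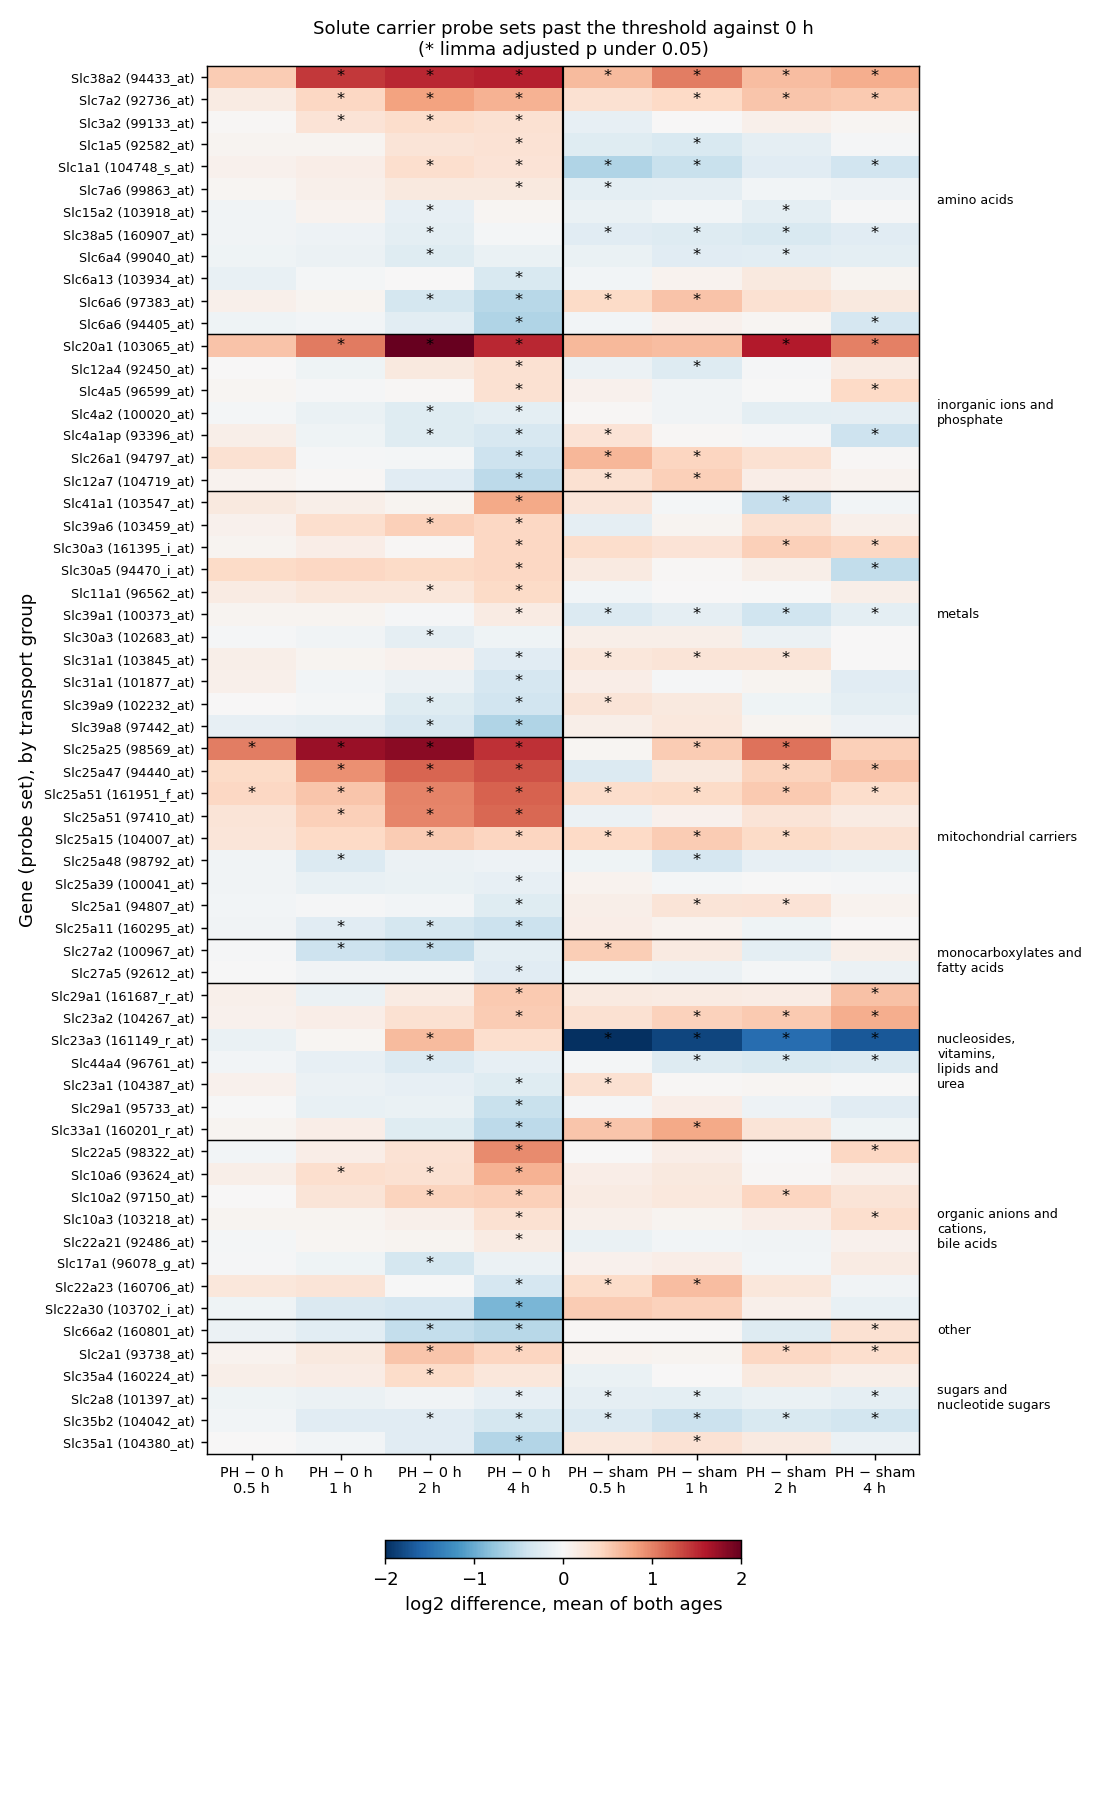
Log2 differences (colour, mean of both ages) of the 62 probe sets past the threshold against 0 h at 1 time or more, by transport group (rows), for PH against 0 h and PH against sham at 4 times (columns); stars mark limma adjusted p under 0.05. Slc25a25, Slc20a1 and Slc38a2 show the deepest red on the left, and the probe set of Slc23a3 is blue throughout on the right (-2.15 to -1.52).

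Against sham, more solute carriers differed than against 0 h at 0.5, 1 and 2 h (51, 79 and 57 against 2, 12 and 32) and fewer at 4 h (48 against 52). The shares lay near those of the whole array. They were 22 higher and 29 lower at 0.5 h (27.6% against 29.2% of all, 13.8% higher and 15.4% lower) and 28 and 51 at 1 h (42.7% against 43.5%, 17.7% and 25.8%). At 2 h they were 19 and 38 (30.8% against 34.8%, 13.9% and 20.9%), and at 4 h 19 and 29 (25.9% against 23.5%, 11.3% and 12.2%). Between sham and 0 h, averaged over ages and times, 54 were higher and 34 lower (47.6% against 45.1%, 25.8% higher and 19.3% lower). Marker genes of other cells differed as well: 4 of 6 endothelial markers were lower in sham than at 0 h and 1 higher, with means of 5.96 to 6.24 in sham and 6.19 to 6.40 in 0 h arrays. Endothelial markers were higher after PH than after sham in 3, 4, 3 and 2 of 6 at the 4 times. Of the neutrophil markers 4 of 10, of the B or plasma cell markers 3 of 5 and of the T or NK cell markers 1 of 4 were higher in sham than at 0 h. So were 2 of 4 cholangiocyte, 2 of 7 stellate cell or fibroblast, 1 of 9 macrophage and 1 of 4 pancreas or gut markers. Of the 11 hepatocyte markers 2 were higher and 2 lower, and 1 stellate cell or fibroblast marker was lower. Over the array 25.8% were higher and 19.3% lower. The part of these cells in the sham results was not tested. Slc12a2, Slc16a7 and Slc2a3 passed between sham and 0 h and at none of the 4 times between PH and 0 h. Slc12a2, the sodium-potassium-chloride cotransporter, read 5.21 to 5.86 at 0 h and 5.29 to 5.86 at PH 4 h, but 4.85 to 5.45 over the 16 sham arrays, a fall of 0.58 (limma adjusted p = 1.06e-05). Slc16a7, a monocarboxylate carrier, was 0.72 lower in sham than at 0 h (limma adjusted p = 0.000348), with sham arrays at 5.29 to 5.88 and 0 h arrays at 6.16 to 6.62. A probe set of Slc23a3, a vitamin C carrier relative, with the suffix _r read 6.94 to 8.18 in sham arrays and 5.09 to 6.74 over the 24 PH arrays. It was 2.02 higher in sham than at 0 h (limma adjusted p = 7.63e-11), where its means were 5.77 in young and 5.44 in old livers. Its other probe set was 0.27 higher. Slc2a3, a glucose carrier, was higher in sham in both probe sets (0.47 and 0.45).

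Age was compared at 0 h in 6 arrays and over the 9 conditions in 46, so the numbers of calls are not on the same footing. The median absolute difference of the members was 0.09 at 0 h and 0.05 over the 9 conditions. At 0 h 1 of the 185 differed (0.541% against 0.145% of all, 0.129% higher and 0.0161% lower). That was the probe set without a suffix of Slc39a4, a zinc importer. It read 8.66, 8.74 and 8.41 in young and 7.24, 7.54 and 7.48 in old livers. The groups did not overlap, and the old mean was lower by 1.18 (limma adjusted p = 0.0158). The call was lost without young 0 h replicate 1 or 2 or old 0 h replicate 1 or 2. The other probe set of the gene, brighter and with the suffix _r, differed by -0.07, and with array weights 5 members passed in place of 1.

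Over the 9 conditions 14 were higher and 14 lower in old livers (15.1% against 8.93%, 5.02% higher and 3.90% lower). The Slc39a4 probe set without a suffix was 0.65 lower (limma adjusted p = 2.79e-06), although old PH 1 h replicate 3 (9.09) had the highest value of all arrays. No other metal carrier probe set passed as lower, so the second probe set of Slc39a4 did not. Slc3a1, the heavy chain of a cystine and dibasic amino acid carrier, was 0.46 higher in old livers (limma adjusted p = 1.5e-05), with old arrays at 7.85 to 8.89 and young arrays at 7.57 to 8.42. Slc30a5, a zinc carrier of the secretory pathway, was higher in both probe sets (0.42 and 0.37), which have the suffixes _i and _r. Slc11a2, an iron importer, was higher by 0.36 (limma adjusted p = 0.00776) in 1 probe set. The other Slc11a2 probe set had lower means in old than in young livers at 0 h (7.06 against 7.15) and at PH 0.5 h (7.02 against 7.2). These are only 2 of the 9 conditions, and over all 9 it did not pass as lower. Slc2a2 was 0.35 lower (limma adjusted p = 0.0392), a call lost in 17 of 46 fits that left out an array. Slc37a4, the glucose-6-phosphate carrier of the endoplasmic reticulum, and Slc29a1 were each 0.29 lower (limma adjusted p = 0.0111 and 0.000426), and both probe sets of Slc29a1 were lower. Of 10 macrophage markers 9 were measured, and 4 were higher in old livers. Of the hepatocyte markers 4 of 11 were lower and 0 higher, of the endothelial markers 2 of 6 were lower, and of the B or plasma cell markers 2 of 5 were higher. The part of these cells in the age differences was not tested.

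**Figure D5:**
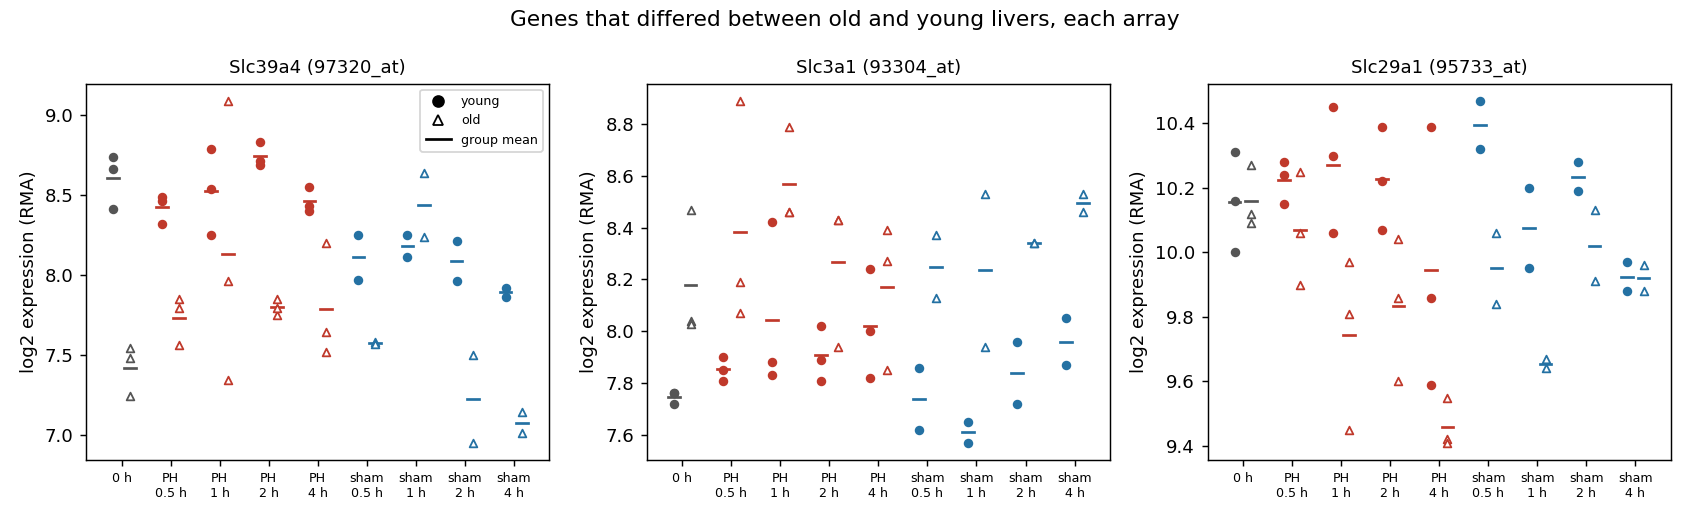
Log2 expression (vertical axes) of Slc39a4, Slc3a1 and Slc29a1 in each array by condition (horizontal axes); filled circles are young livers, open triangles old livers, and short lines group means. At 0 h the Slc39a4 arrays of young livers (8.41 to 8.74) lie above those of old livers (7.24 to 7.54).

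The PH response of solute carriers did not differ detectably with age. The F test of the age difference over the 4 times passed in 0 of the 185 probe sets (0.0% of all tested). The lowest limma adjusted p was 0.335 among members and 0.0524 over the array, and 14 members and 921 probe sets in all had an unadjusted p under 0.05. For Slc25a25 the rises at 1, 2 and 4 h were 1.56, 1.77 and 1.28 in young and 1.91, 1.85 and 1.64 in old livers.

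Transporters outside the solute carrier families, 43 probe sets for ATP-binding cassette transporters, aquaporins and ion pumps, gave 0 calls at 0.5 h after PH, when 0.0886% of all tested passed. At 4 h 11 rose and 7 fell (41.9% against 23.5%). Abca1, which exports cholesterol, rose by 1.28 at 4 h in 1 of its probe sets (limma adjusted p = 3.92e-07), and Atp2a2, a calcium pump of the endoplasmic reticulum, by 0.74 (3.25e-06). The water channel genes Aqp8 and Aqp9 fell by 0.89 and 0.62 (limma adjusted p = 0.001 and 5.65e-05). These are differences from 0 h only. Between sham and 0 h 7 of the 43 probe sets were higher and 10 lower (25.8% and 19.3% of all tested). Between PH and sham at 4 h 12 were higher and 6 lower (11.3% and 12.2% of all tested).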

How the data were processed

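RNA from whole liver was hybridised to Affymetrix Murine Genome U74 Version 2 arrays, 1 per sample. Values were used as deposited, on the log2 scale, and the authors made them with RMA, per the submitters' processing notes. The RMA version was not given in the sources used here. No further normalization was done. RMA pulls low signals together, so differences of dim probe sets may be compressed. The number of arrays limits the precision.

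Of 12488 probe sets, 66 control probe sets were left out. Group means of the 18 groups were fitted over 46 arrays by lmFit and eBayes (limma version 3.58.1, R version 4.3.3, 28 residual and 5.09 prior degrees of freedom), and the fit was tested on simulated data. Gene names came from the platform annotation, and all 185 member symbols equalled a symbol of the RefSeq gene table.

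The members and lists were chosen with earlier results of these data known. Named genes were Slc25a25, up to 10 members with the largest difference in each direction among those past the threshold in a comparison, up to 4 by size of change in each transport group, and a list of well known carriers. Of several probe sets for a gene, the brightest on average is described unless the text names another, and disagreements are noted. Comparisons of sham with 0 h at each time, of PH within each age and between successive PH times were added after seeing the data. Alternatives were median centring, dim probe sets left out, trend and robust estimation, compared groups alone, suffixed probe sets left out, replicate block, array weights, a spike-in covariate and arrays left out.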

Additional observations from a re-analysis of the deposited data

How the results depend on the processing

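Of 5986 recomputed differences of single genes against 0 h, against sham or between ages, 5499 kept their direction and their side of the threshold, 480 lost the threshold, 5 gained it and 2 changed sign. Signs changed in Slc25a25: its PH difference from sham at 0.5 h became -0.16 with 2 arrays left out together and ranged from -0.16 (without old PH 0.5 h replicate 3) to 0.26 with single arrays left out, and among the added comparisons its change from PH 2 h to PH 4 h became 0.35 with the spike-in covariate. Counts of solute carrier probe sets past the threshold moved by over 1.5 times in these settings. Against 0 h at 0.5 h (2), they were 0 with the compared groups alone and 1 without suffixed probe sets. At 1 h (12), they were 6 with the compared groups alone and 4 with the spike-in covariate. At 2 h (32), they were 53 with array weights and 11 with the spike-in covariate, and for age at 0 h (1) 5 with array weights. The cause was not tested, except that the compared groups alone leave fewer arrays. With each array left out in turn, counts against 0 h ranged from 1 to 2, 5 to 16, 22 to 32 and 40 to 50 at the 4 times. Against sham they ranged from 30 to 48, 51 to 83, 31 to 65 and 32 to 50. The lowest were without young sham 0.5 h replicate 1 (30), old sham 1 h replicate 2 (51) and old sham 2 h replicate 2 (31). They ranged from 73 to 90 for sham against 0 h, 0 to 1 for age at 0 h, 23 to 34 for age over 9 conditions and 0 to 0 for the F test. At 1 h the count also fell to 7 without young 0 h replicate 2, to 6 without old 0 h replicate 3 and to 7 without young PH 1 h replicate 2 or 3. Deviations of same-numbered arrays had a mean correlation of 0.006, so no pairing was assumed. With the replicate number as a block, the count at 4 h was 53 in place of 52, and no count moved by over 1.5 times. The comparison over 9 conditions uses all groups, so it has no fit of the compared groups alone.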
